A study of Takifugu rubripes with 9 samples.

Results

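The slow muscle small RNA library of adult wild type torafugu (Takifugu rubripes), a pufferfish, was compared with the libraries of heart, intestine, liver, eye, brain, ovary and testis. It was chosen by its tissue label alone and is 1 of 8 libraries with a processed file, out of 9 samples in the labels. The fast muscle sample was not analysed here. All libraries were made from tissue of adult fish, and which animal gave which tissue is not stated, so tissue and animal cannot be told apart. With a single library per tissue, no difference has a replicate check, and every interval covers counting error only, as sequenced copies are not independent molecules. Reads were summed by miRNA name and arm and given as CPM, the count per 1000000 annotated reads of the same library. The 724758 annotated reads of slow muscle fell on 426 names, out of 631 names with reads in any library. In whole tissue, fewer cells of a type and less RNA per cell cannot be told apart.

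The other libraries held 54540 annotated reads in testis and between 437295 in liver and 1207961 in intestine. In testis 3 reads already came to 55.0 CPM, while in slow muscle they came to 4.14 CPM, so a name at 0 in testis may stand at a low level there. A name taken from a precursor match alone is called precursor-only, because the authors' search matched its sequence to a hairpin without assigning it to an annotated mature arm. Such sequences can still overlap a mature arm, as some of miR-1 and all of miR-10d in slow muscle did.

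Slow muscle fibres are the red, oxidative fibres with which fish swim steadily, and heart is the other striated muscle among the 8 libraries. A miRNA is cut from a hairpin whose 5p and 3p arms can each give a mature strand, and bases 2 to 8 of that strand, the seed, pair with target mRNAs. In vertebrates miR-1, miR-133, miR-206 and miR-499 are known as muscle miRNAs. The miR-1 and miR-133 hairpins lie beside each other in the genome, miR-206 is known from skeletal muscle, and miR-499 sits within a slow myosin heavy chain gene in mammals. In the RefSeq table of the fTakRub1.2 assembly, mir133 and mir1 are next to each other after mib1. RefSeq genes of the same name were found for 21 of the 49 miRNA names chosen for description.

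The sequences that carry the muscle result are shown as the most-read form of each name in slow muscle, as deposited, with the seed in capitals. The first 3 share a seed, as do the next 2, while the 5p arms of miR-133 come in 2 versions.
miR-1-3p: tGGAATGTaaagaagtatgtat
miR-206-3p: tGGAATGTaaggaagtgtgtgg
miR-3571-5p: tGGAATGTaaagaagtgtgtat
miR-133-3p: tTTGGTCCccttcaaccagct
miR-133b-3p: tTTGGTCCccttcaaccagcta
miR-133 precursor-only: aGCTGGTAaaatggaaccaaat
miR-133b precursor-only: gCTGGTCAaacggaaccaagtc
miR-206-5p: aCATGCTTccttatatccccat
miR-1 precursor-only: aCATACTTctttatgtacccat
miR-499-5p: tTAAGACTtgcagtgatgttta

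With positions counted from the 5′ end and the miR-206-3p base given first, this form differs from that of miR-1-3p at 4 of 22 positions, G11A, G17A, G21A and G22T. The form named miR-3571-5p, after a rat entry, differs from that of miR-1-3p only at G17A, with its own base first.

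Of the 14 marker lists, striated muscle held the largest share of the slow muscle library. Names of miR-1, miR-133, miR-206 and miR-499 held 38.5% of its annotated reads (95% exact Clopper-Pearson interval 38.4 to 38.6), against 17.1% (17.0 to 17.2) in heart and 1.87% (1.83 to 1.91) in eye. In intestine, liver, brain, ovary and testis the share lay between 0.0202% and 0.269%. Of the 6 miRNAs in the striated muscle list, miR-208, the cardiac myosin miRNA of mammals, and miR-486 had no reads in any of the 8 libraries. The library was not concentrated beyond the others, as its 10 most-read names held 64.6% of the reads (64.5 to 64.7), against 51.4% in brain to 77.5% in ovary.

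The most-read name was miR-1-3p, which promotes muscle differentiation in mammals. It stood at 192944 CPM in slow muscle, against 119661 CPM in heart and 11574 CPM in eye, and it had 73.3 CPM in testis, 169 in liver, 696 in ovary, 2003 in intestine and 2052 in brain. Slow muscle and heart were thus the 2 high libraries, and slow muscle was 1.61-fold above heart (1.60 to 1.62). The names miR-1c-3p and miR-1a-3p, whose sequences share the miR-1 seed, stood at 3103 and 203 CPM in slow muscle, against 2404 and 78.2 CPM in heart. The miR-3571-5p name went the other way, with 2772 CPM in slow muscle and 3711 CPM in heart.

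The second name, miR-206-3p, separated slow muscle from heart. It stood at 91929 CPM in slow muscle (91232 to 92629), against 2097 in eye, 116 in heart, 33.4 in brain, 25.2 in liver, 9.11 in intestine, 7.44 in ovary and 0 in testis. Slow muscle was 43.8-fold above eye (41.1 to 46.8), the next library. The other arm, miR-206-5p, stood at 505 CPM from 366 reads, against 32.7 in eye, 3.23 in brain, 1.13 in heart and 0 in intestine, liver, ovary and testis. It was 15.4-fold above eye (9.24 to 27.9). Both arms thus placed slow muscle first and eye second. The 5p arm held 0.546% of the miR-206 reads in slow muscle (0.492 to 0.605). Its share was 0.971% in heart from 1 read and 1.54% in eye from 15 reads, so little can be read from these.

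Because miR-206-3p and miR-1-3p share their seed, all reads with that seed, whatever their name, were also summed. They came to 289241 CPM in slow muscle, against 125106 in heart and 14209 in eye, with 73.3 to 2146 CPM in the other libraries. Slow muscle was 2.31-fold above heart (2.30 to 2.33) by this sum. The larger miR-206 excess thus lay on a seed that heart also carried at a high level, there mostly as miR-1-3p.

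**Figure D1:**
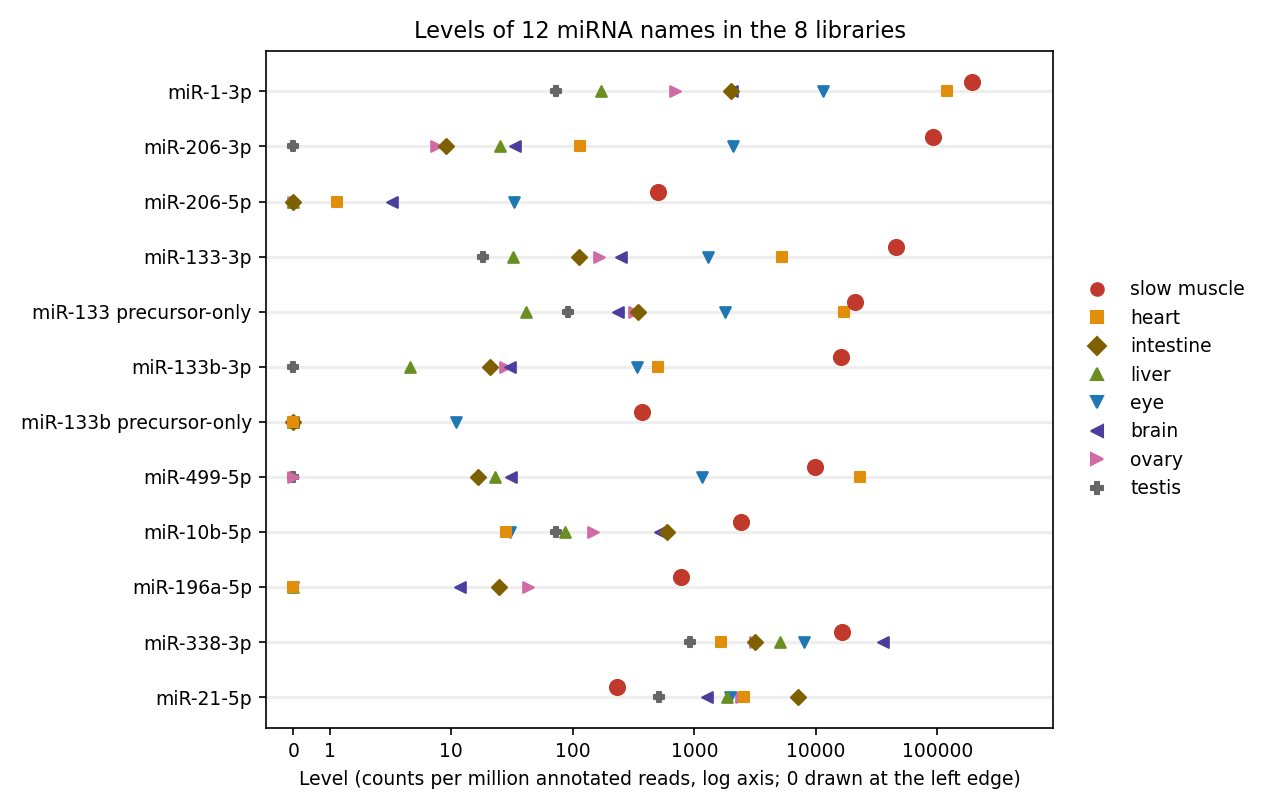
Level of 12 miRNA names in CPM of annotated reads (log axis, with 0 drawn at the left edge), with 1 point for each of the 8 libraries and no error bars since each is a single library. Slow muscle is at the right of all other libraries in 9 of the 12 rows, heart is above it for miR-499-5p, brain for miR-338-3p, and for miR-21-5p slow muscle is the lowest of the 8 on this denominator.

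The miR-133 family, which holds down smooth muscle genes in the mouse heart, was split over several names, and these did not share 1 pattern. The level of miR-133-3p was 46203 CPM in slow muscle, against 5231 in heart, 1306 in eye, 250 in brain, 164 in ovary, 113 in intestine, 32.0 in liver and 18.3 in testis. Slow muscle was 8.83-fold above heart (8.56 to 9.11). For miR-133b-3p the level was 16092 CPM in slow muscle, against 504 in heart, 340 in eye and 30.1 CPM or less in the remaining libraries. Its ratio to heart was 31.9 (29.0 to 35.1). The miR-133 precursor-only reads, whose most-read form has the letters of the human miR-133a 5p arm, were nearly level in the 2 striated muscles. They stood at 21182 CPM in slow muscle, against 17137 in heart, 1785 in eye and 41.2 to 344 CPM elsewhere, a ratio to heart of 1.24 (1.21 to 1.26). Among the 3p names, miR-133a-3p was also 7.97-fold above heart (5.99 to 10.8), whereas miR-133c-3p stood at 2.53-fold (2.00 to 3.21) and miR-133d-3p at 1.74-fold (1.05 to 2.93). With the letters of all miR-133 names pooled, the ratio to heart was 10.6 for the 3p names and 1.26 for the precursor-only reads.

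The other 5p version has the letters of the human miR-133b hairpin. Like miR-133b-3p it stood far above heart in slow muscle, but its next library was eye and not heart. The miR-133b precursor-only reads came to 371 CPM in slow muscle from 269 reads, against 10.9 CPM in eye from 5 reads and 0 reads in the other 6 libraries. Slow muscle was 34.1-fold above eye (14.4 to 106). With heart set at 3 reads the ratio to heart was 109, and the counting interval with 0 reads in heart starts at 88.15. The name miR-133-5p, which holds longer and later-starting reads of the same arm, had 63 reads in slow muscle and 0 reads in every other library. By contrast miR-133b-5p, a lamprey entry whose sequences differ at the start from the miR-133a-type 5p arm, had 123 CPM in slow muscle and 141 CPM in heart. Its levels thus resembled those of the miR-133a-type arm, so the letter b in a name did not mark 1 version.

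The ends of the 3p reads also differed between slow muscle and heart. Which hairpin gave the reads of each end class was not tested. In humans miR-133a and miR-133b differ by their last base, G or A, after the shared letters CCAGCT. Among all miR-133 3p reads in slow muscle, 13588 went on to A and 625 to G, against 648 and 389 in heart. The A-ending reads stood at 18748 CPM in slow muscle and 734 CPM in heart, a ratio of 25.5 (23.6 to 27.7). The G-ending reads stood at 862 CPM in slow muscle and 441 CPM in heart, a ratio of 1.96 (1.72 to 2.23). Reads that carried C after CCAGC stood at 3430 CPM in slow muscle and 1236 CPM in heart, a ratio of 2.78 (2.58 to 2.98). Fewer reads carried T or C after CCAGCT, in neither human version. The T class, which holds the most-read form named miR-133a-3p, had 359 reads in slow muscle and 51 in heart, a ratio of 8.57 (6.38 to 11.7), and the C class had 207 reads in slow muscle and 20 in heart, a ratio of 12.6 (7.95 to 21.1). The other 28506 reads in slow muscle and 3052 in heart ended before these letters or at them. Slow muscle was above heart in all 5 classes, with the G-ending class lowest and the A-ending class highest.

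The 5′ start of the 3p arm differed between the libraries too, and with it the seed. Reads that began with TTTGGTC made up 85.0% (84.7 to 85.3) of the miR-133 3p reads of slow muscle, against 47.4% (46.0 to 48.7) of those of heart. Their share was 36.1% for ovary, 50.3% for intestine, 71.1% for brain and 74.5% for eye. Reads that began 1 base later made up 12.7% in slow muscle and 40.3% in heart. The first class stood at 53666 CPM in slow muscle and 2818 CPM in heart, a ratio of 19.04 (18.29 to 19.84), while the later-starting class stood at 8032 CPM in slow muscle and 2396 CPM in heart, a ratio of 3.35 (3.19 to 3.52). For miR-1-3p no such difference was seen, since the most common start held 99.3% of the reads that could be placed in both slow muscle and heart. Of 29 named arms with at least 100 placed reads in slow muscle, 22 had 95% or more of them at 1 start.

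**Figure D2:**
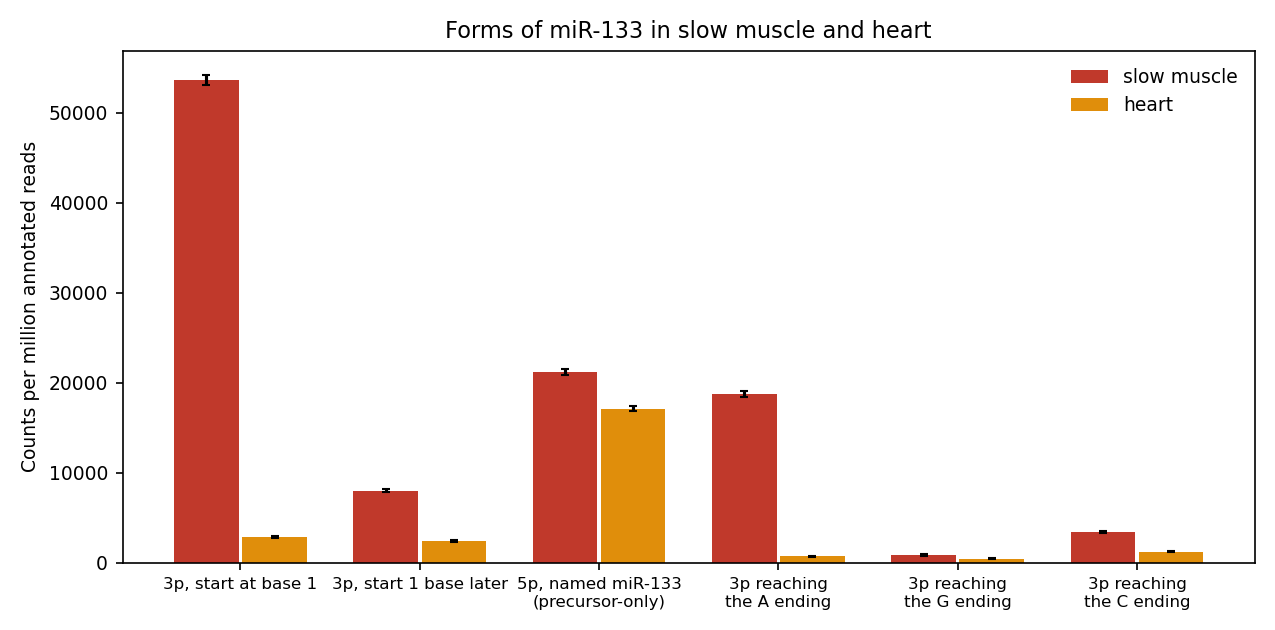
Forms of miR-133 in slow muscle (left bar of each pair) and heart (right bar) in CPM of annotated reads, with bars for exact 95% Poisson intervals of the read counts. The 3p reads starting at base 1 reach 53666 in slow muscle against 2818 in heart, whereas the 5p reads named miR-133 stand at 21182 against 17137.

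The fourth muscle miRNA was higher in heart. Slow muscle had 9945 CPM of miR-499-5p, against 23346 in heart, 1160 in eye, 31.2 in brain, 22.9 in liver, 16.6 in intestine and 0 in ovary and testis. Its ratio to heart was 0.426 (0.415 to 0.438), but slow muscle was still far above the 6 other libraries. The name miR-499-3p kept this order, with 41.4 CPM in slow muscle, 162 CPM in heart and 0 in the other 6. Adding precursor-only reads that overlap the 3p arm raised its reads in slow muscle from 30 to 468. All reads with the seed of the 3p arm came to 595 CPM in slow muscle, against 1363 in heart and 30.5 in eye. The remaining libraries had 0 to 1.66 CPM by this sum, and the ratio to heart was 0.4365 (0.390 to 0.488). The miR-1 5p arm was read only as precursor-only sequence. Those reads with the seed of the form shown had 355 CPM in slow muscle, against 70.3 CPM in heart and 0 to 39.1 CPM elsewhere, a ratio to heart of 5.05 (3.81 to 6.77), while all miR-1 precursor-only reads, some of them from the 3p arm, stood at 404 and 103 CPM. The remaining names of the striated muscle list lay between 1.38 and 628 CPM in slow muscle.

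Over all names, 299 reached 100 CPM in at least 1 library, and 12 of them (4.01%) were at least 2-fold above the highest of the other 7 libraries in slow muscle. The same count was 5 (1.67%) for heart, 9 (3.01%) for ovary, 14 (4.68%) for liver, 26 (8.70%) for eye, 27 (9.03%) for intestine, 29 (9.70%) for testis and 45 (15.1%) for brain. Of the 12 names, 9 were among the 18 names of the striated muscle list that passed this level. The other 3 were among the 5 of the Hox list of miR-10 and miR-196, labelled posterior Hox. As 6 of the 12 names, 4 striated and 2 of the Hox list, reached 100 CPM in slow muscle alone, they had to stand above the others, and the counts by list are a description only. The names are not independent, since several hold variants of the same miRNA, and 6 were found with names collapsed to number and arm. Without heart the count was 21, with miR-1-3p and miR-499-5p among the 9 added. Just inside the limit were miR-133c-3p at 2.53-fold and miR-1a-3p at 2.59-fold, and just outside were miR-30b-5p at 1.81-fold and miR-133a precursor-only at 1.77-fold.

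**Figure D3:**
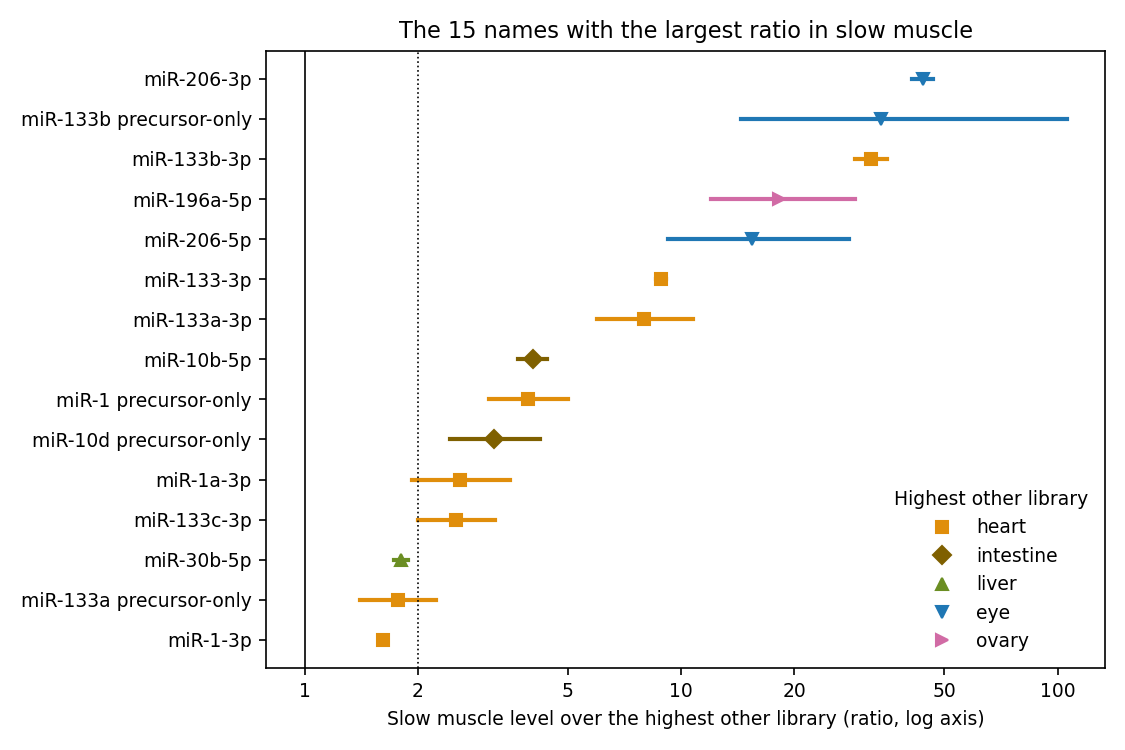
Slow muscle level over that of the highest other library (ratio, log axis) for the 15 names with the largest ratio, with exact 95% Clopper-Pearson intervals for counting error and the symbol showing which library was the highest other. The dotted line marks 2-fold, and 12 names lie at or beyond it, from miR-133c-3p at 2.53 to miR-206-3p at 43.8.

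In vertebrates miR-10 and miR-196 genes are known from the Hox clusters, which set position along the body axis. In the RefSeq table mir196a-1 is followed by hoxc9a, mir196a-2 follows hoxa9a, mir10b-1 follows hoxd4a and mir10b-2 follows hoxc5a. The label posterior Hox is thus not borne out for these miR-10 genes. The neighbours of mir10d are LOC101070735 and trnaq-cug, neither of them named as a Hox gene. The most-read forms of miR-196a-5p, miR-10b-5p and miR-10d precursor-only in slow muscle are shown. Outside the muscle miRNAs, these were the names that stood 2-fold or more above all other libraries compared, which do not include fast muscle.
miR-196a-5p: tAGGTAGTttcatgttgttggg
miR-10b-5p: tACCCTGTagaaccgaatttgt
miR-10d precursor-only: tACCCTGTagaaccgaatgt

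The level of miR-196a-5p was 778 CPM in slow muscle from 564 reads, against 42.8 in ovary, 24.8 in intestine, 11.8 in brain and 0 in heart, liver, eye and testis. Slow muscle was 18.2-fold above ovary (12 to 28.9), which had 23 reads. The ratio was 33.4 with all 18 to 25 nt reads as the denominator and 8.27 with miR-145-5p left out of the totals. For miR-10b-5p the level was 2423 CPM in slow muscle, against 600 in intestine, 522 in brain, 147 in ovary, 86.9 in liver, 73.3 in testis, 30.5 in eye and 28.3 in heart. Slow muscle was 4.04-fold above intestine (3.70 to 4.41). The miR-10d precursor-only reads had 217 CPM in slow muscle and 67.9 CPM in intestine, a ratio of 3.19 (2.43 to 4.22). All 157 of these reads in slow muscle overlapped the 5p arm of miR-10d, so they are not a separate strand. The miR-10d-5p name itself, with 211 reads in slow muscle, was not 2-fold above the highest other library. The names miR-196a-5p, miR-10b-5p and miR-10d precursor-only were highest in slow muscle, with heart at or near the bottom.

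The miR-10 excess did not hold for the family. In slow muscle miR-10c-5p stood at 1730 CPM, against 5422 in liver, 2929 in brain and 1907 in intestine. All reads with the main miR-10 seed came to 3528 CPM in slow muscle, against 4084 in liver and 2952 in brain, a ratio to liver of 0.864 (0.813 to 0.918). Heart stood at 382 CPM by the same sum, so slow muscle remained 9.24-fold above the other striated muscle (8.24 to 10.4). For the miR-196a seed, the sum was 883 CPM in slow muscle and 253 CPM in brain, but let-7 reads with a later start also carry this seed. Brain had 235 reads with the seed against 23 reads of all miR-196 names, and heart had 159 against 4. The brain sum was thus mostly not miR-196.

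Beyond the muscle and Hox names, slow muscle was highest for some other miRNA reads by smaller margins. Reads with the miR-30 seed came to 29682 CPM in slow muscle, against 21562 in testis, 19776 in liver and 16331 in heart, a ratio to testis of 1.38 (1.30 to 1.46). Within it miR-30b-5p stood at 10928 CPM in slow muscle, against 6053 in liver, 4547 in testis and 4021 in heart, with 897 to 3197 CPM in the others. Its ratio to liver was 1.81 (1.73 to 1.89). The miR-199 precursor-only reads, whose form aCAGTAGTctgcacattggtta is the known 3p strand, stood at 38394 CPM in slow muscle, against 24336 in liver and 24011 in heart. This did not hold for all of miR-199, which is in the connective tissue list. All miR-199 names summed to 48735 CPM in slow muscle, below 54805 in liver. Reads with the seed of the miR-199 5p arm came to 9816 CPM in slow muscle, against 23379 in ovary. For miR-26-5p the levels were 32532 CPM in slow muscle and 28433 CPM in heart. Of the 84 names of the broadly expressed list that passed the level, 11 were at least 2-fold above the median of the others and 15 at least 2-fold below it. Over all 271 names with a median above 0, these counts were 73 (26.9%) and 64 (23.6%). The list had a median log2 ratio to the median of the others of -0.10 after 1 CPM was added to both, against 0.01 over all 299 names.

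Among the 271 names whose median in the other libraries was above 0, 73 (26.9%) were at least 2-fold above that median in slow muscle and 64 (23.6%) at least 2-fold below it. With all 18 to 25 nt reads as the denominator, 82 names were above and 22 below, out of 215 that passed the level. Annotated reads made up 37.7% of those reads in slow muscle, 33.1% to 36.3% in the other somatic libraries, 11.3% in ovary and 2.58% in testis. Slow muscle was the highest of the 8 libraries for 25 of the 299 names and the lowest, ties left out, for 18. Slow muscle and heart were the pair of highest libraries for 26 names. Of these 26, 16 were names of miR-1, miR-133, miR-499 or the miR-1-like miR-3571-5p, 4 were names of miR-126, and the rest were miR-24b-3p, miR-26-5p, miR-26a-5p, miR-27a-3p, miR-30c-5p and miR-199c-3p. The Spearman correlation of slow muscle with heart over the 299 names was 0.88, against 0.75 with intestine, 0.71 with liver, 0.70 with ovary, 0.58 with eye and 0.54 with brain and testis. Without the names of the striated list it was 0.90 with heart, 0.84 with intestine and 0.83 with liver. These values describe names that share libraries and depth.

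Markers of vessels and blood were read at lower levels in slow muscle than in heart. The names of miR-126, an endothelial miRNA whose gene neighbours egfl7 in the RefSeq table, summed to 97208 CPM in slow muscle, against 164148 in heart, 69235 in liver and 18460 to 31518 in the others. The red blood cell list of miR-144 and miR-451 summed to 25735 CPM in slow muscle, against 90220 in heart, 81312 in eye, 26147 in liver and 2597 in intestine. Within it miR-451-5p stood at 25069 CPM in slow muscle and 88061 CPM in heart. The white blood cell list summed to 5631 CPM in slow muscle, against 15541 in heart and 27052 in ovary, led by miR-223-3p with 3702 CPM in slow muscle and miR-146a-5p with 1588 CPM. The smooth muscle list of miR-143 and miR-145 stood at 85188 CPM in slow muscle, against 100220 in heart and 593573 in ovary. The connective tissue list summed to 68771 CPM in slow muscle, against 81953 in heart and 36702 in intestine, the lowest.

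**Figure D4:**
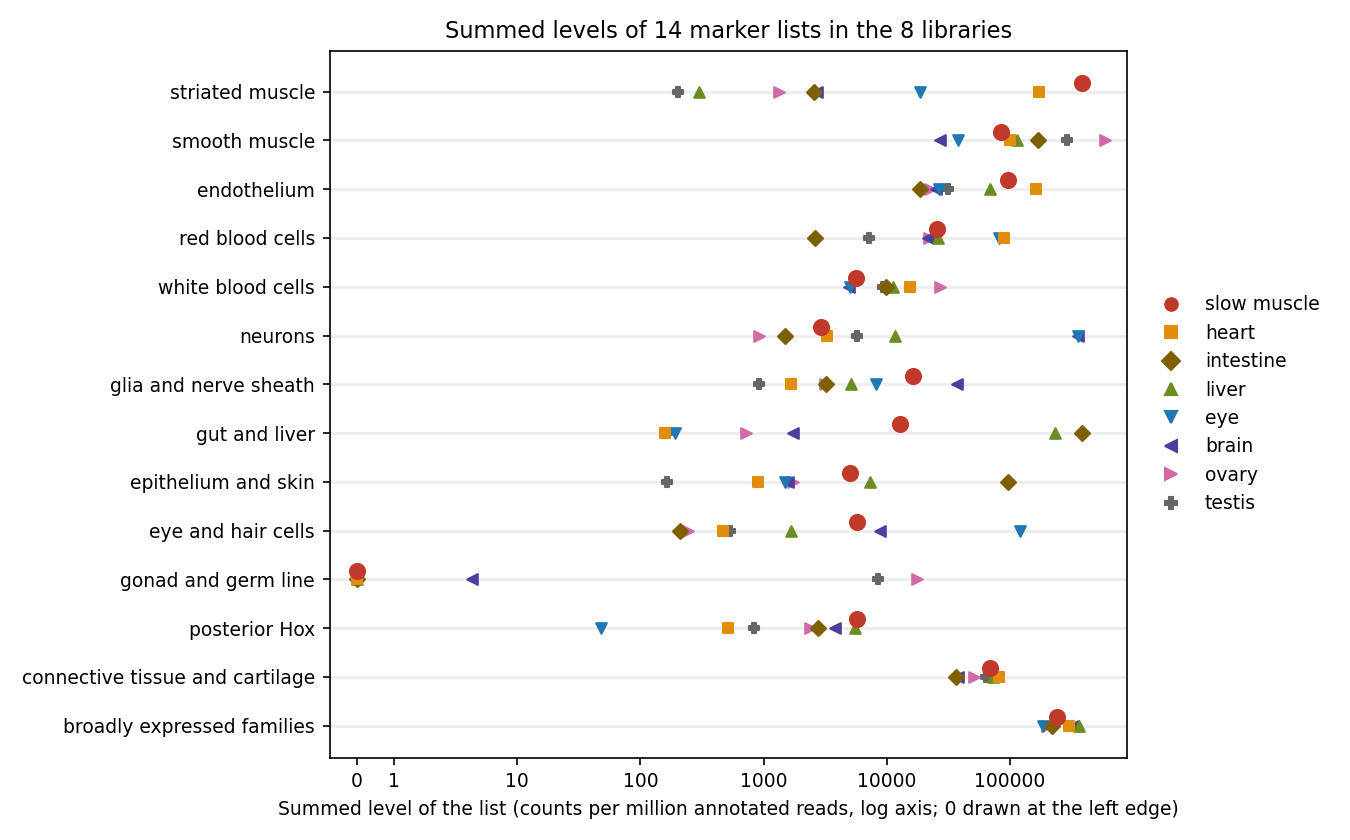
Summed level of 14 marker lists in CPM of annotated reads (log axis, with 0 drawn at the left edge), with 1 point for each library. Slow muscle is the highest for striated muscle at 385240, against 170999 in heart. For the list labelled posterior Hox, slow muscle and liver are nearly level, at 5694 and 5557. For gut and liver markers slow muscle stands at 12890, below intestine and liver and above the other libraries.

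Markers of other organs were also read in slow muscle above heart. The gut and liver list summed to 12890 CPM in slow muscle, against 160 in heart, 385541 in intestine, 232299 in liver and 165 to 1724 in the others. Of the 8 names of this list and the epithelial list whose highest library was intestine and that reached 1000 CPM there, the slow muscle level was between 1.67% (miR-215-5p) and 5.01% (miR-200a-3p) of that in intestine. The leading name, miR-192-5p, stood at 11699 CPM in slow muscle or 3.32% of intestine, while in heart it was 0.0357% of intestine. In contrast miR-122-5p, the hepatocyte miRNA, had 58.0 CPM in slow muscle, 0.0432% of its liver level. The part of reads from other tissues in these levels was not tested.

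Within the nerve and eye lists, single names stood far apart. Of the glial list, miR-338-3p had 16321 CPM in slow muscle, against 35755 in brain, 8045 in eye, 5086 in liver, 3188 in intestine, 3158 in ovary, 1667 in heart and 917 in testis, while miR-219 had 0 reads in slow muscle. Slow muscle was 9.79-fold above heart for miR-338-3p (9.27 to 10.3). The neuronal list summed to 2946 CPM in slow muscle and 3269 CPM in heart, against 355325 in brain, and its leading names in slow muscle were miR-129 precursor-only with 1425 CPM and miR-128-3p with 673 CPM. Of the eye and hair cell list, miR-204a-5p had 5576 CPM in slow muscle, against 98278 in eye and 1562 in liver, whereas miR-183-5p had 19.3 CPM in slow muscle and 5355 in eye. With all miR-204 names pooled, brain stood above slow muscle, at 7315 against 5628 CPM. The gonad and germ line list of miR-202 and miR-430 had 0 reads in slow muscle, which allows up to 4.14 CPM, against 17538 CPM in ovary and 8471 CPM in testis.

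In the epithelial and skin list, which summed to 5011 CPM in slow muscle and 897 CPM in heart, miR-200a-3p and miR-200b-3p led with 3197 and 1214 CPM in slow muscle. The skin miRNA miR-203-3p had 201 CPM in slow muscle, against 357 in eye and 97.5 in heart. The other skin miRNA, miR-205-5p, had 46.9 CPM in slow muscle, against 316 in eye and 32.9 in heart. Both skin names were thus below their level in eye. Even so, miR-203-3p was higher in slow muscle than in every library but eye, and at least 2-fold above the median of the others.

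At the low end, 5 of the 185 names with reads in every other library (2.70%) were at least 2-fold below the lowest of them in slow muscle. Their most-read sequences over the 8 libraries, and the second form of miR-21-5p, are shown because these names stood below all other libraries.
miR-2478-3p: aTCCCACTtctgacacca
miR-2898-3p: tCCCCGGCatctccacca
miR-1260-5p: aTCCCACCgctgccacca
miR-727-3p: gTTGAGGCgagttgaagactaa
miR-21-5p, 22 nt: tAGCTTATcagactggtgttgg
miR-21-5p, 23 nt: tAGCTTATcagactggtgttgga

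The first 3 are 18 nt long and end in CCA, the letters that also end mature tRNAs, and their origin was not tested. The miR-2478-3p level was 243 CPM in slow muscle, against 804 in intestine, 1003 in eye, 1052 in heart, 1157 in liver, 2215 in brain, 10026 in ovary and 104235 in testis. The levels of miR-2898-3p and miR-1260-5p were 237 and 49.7 CPM in slow muscle, against lowest values of 617 CPM in liver and 128 CPM in intestine. All 3 were highest in testis, where 18 nt sequences held 18.2% of the annotated reads, against 0.817% in slow muscle. For miR-727-3p slow muscle had 1 read and heart 5, so little can be read from it.

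The level of miR-21-5p, a broadly expressed miRNA that is high in growing and injured tissue of mammals, was 229 CPM in slow muscle, against 7144 in intestine, 2545 in heart, 2416 in ovary, 1973 in eye, 1868 in liver, 1264 in brain and 513 in testis. By this measure slow muscle was the lowest library, at 0.0900 of heart (0.0764 to 0.105) and 0.446 of testis (0.298 to 0.692), where it had 28 reads. The 22 nt form had 4 reads in slow muscle, against 1575 in heart, 6086 in intestine, 640 in liver, 485 in eye, 836 in brain, 832 in ovary and 12 in testis. The 23 nt form, which differs by 1 further base at the 3′ end, had 151 reads in slow muscle and 404 reads in heart. It thus held 91.0% of the miR-21-5p reads in slow muscle, against 11.3% to 20.9% in the other somatic libraries and ovary, while testis had 14 of 28 reads. With the 22 nt form left out, slow muscle stood at 224 CPM, against 293 in testis, 365 in brain, 405 in liver and 759 in heart. It was still the lowest, but its ratio to testis was 0.762 (0.455 to 1.37), and with the TMM scaling of edgeR the ratio of all miR-21-5p reads was 0.544 (0.363 to 0.845). With all 18 to 25 nt reads as the denominator slow muscle was no longer the lowest, at 86.2 reads per 1000000 against 13.2 in testis, a ratio of 6.51 (4.35 to 10.1), but it stayed below the other 6 libraries, which had 273 to 2525.

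Such a low share was seen for few other sequences. Among arms with at least 100 reads in slow muscle and in 3 or more of the other somatic libraries, 299 sequences of 121 names held at least 5% of the arm in each of those libraries. Of them, 2 had a share in slow muscle at least 10-fold under the lowest of the others. The other was the 21 nt form of miR-22a-3p, aAGCTGCCagctgaagaactg, which held 0.514% of the arm in slow muscle from 160 reads, against 7.01% to 12.2% in the other somatic libraries. The total of miR-22a-3p, at 42972 CPM in slow muscle, lay within the range of the others, from 16130 in brain to 123365 in liver. What set these shares was not tested.

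**Figure D5:**
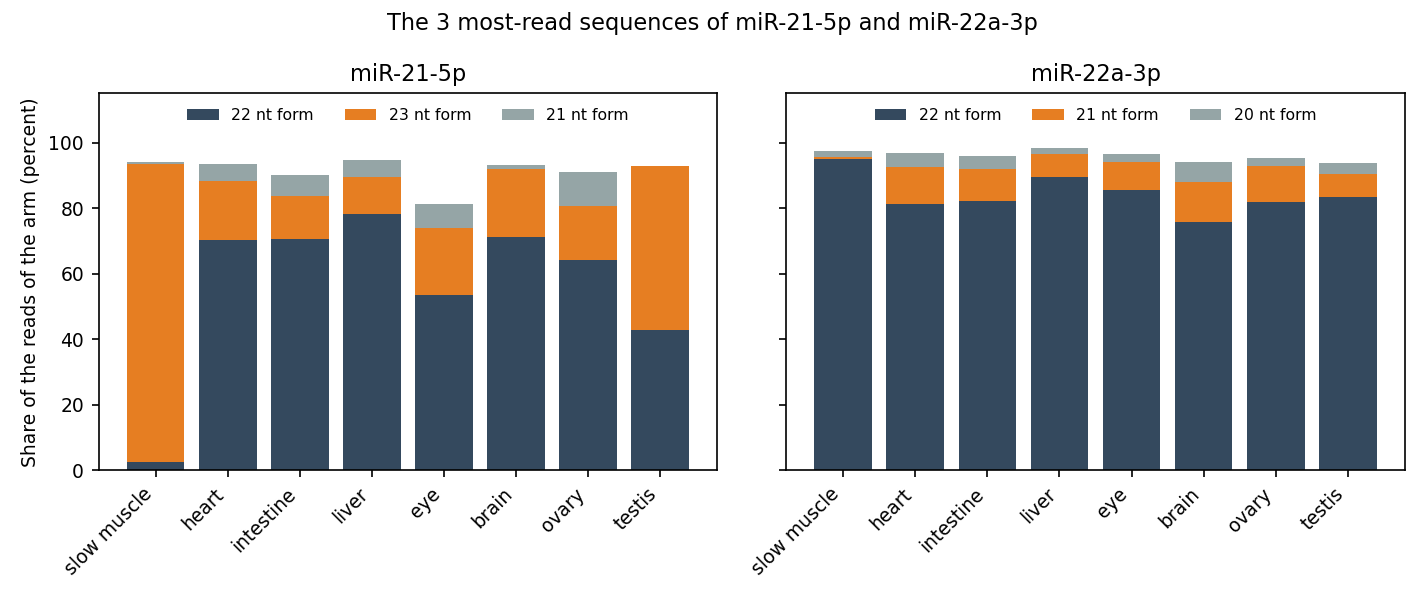
Share of the reads of miR-21-5p and miR-22a-3p (percent of the arm, stacked bars) held by each of their 3 most-read sequences in the 8 libraries. In slow muscle the 22 nt form of miR-21-5p holds 2.41% and the 23 nt form 91.0%, against 70.2% for the 22 nt form in heart.

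Further names were low in slow muscle without passing the 2-fold limit against every library. The level of miR-218a-5p was 174 CPM in slow muscle, against 4580 in brain, 1786 in heart, 1207 in ovary, 1000 in eye, 791 in liver, 387 in intestine and 238 in testis. For miR-103-3p and miR-107-3p, which share most of their sequence in vertebrates and are linked to metabolism, slow muscle had 2703 and 247 CPM, against 3753 and 240 CPM in heart and 17253 and 7664 CPM in testis. The level of miR-4286-5p was 400.1 CPM in slow muscle, against 13641 CPM in testis and 550 CPM in intestine, the lowest. Of the let-7 family, slow muscle had 150 CPM of let-7a precursor-only and 127 CPM of let-7b precursor-only reads, against 498 and 298 CPM in heart. All reads with the let-7 seed came to 22132 CPM in slow muscle, against 33608 in heart, 33275 in brain and 8030 in ovary.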

How the data were processed

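Single small RNA libraries of adult T. rubripes tissues were sequenced on SOLiD. Per the methods of the study, the authors trimmed adaptors, kept sequences of 18 to 25 nt, searched them without mismatches against miRBase in CLC software, species by species, allowing a few bases more or fewer at either end, and deposited whole-number counts per sequence. A genome build is not given in the sources used here. Reads rescued by the authors under looser criteria are not in these counts.

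Counts were summed by name (copy suffix dropped) and arm and divided by the summed counts of the library. Exact 95% Poisson and Clopper-Pearson intervals were computed in scipy 1.17.1, with 3 reads as the floor for a count of 0. There was no test, since each tissue has 1 library; "called" means past 2-fold, among names with at least 100 CPM in a library. The code that makes these calls was tested on simulated data with known folds, which says nothing about differences between animals. The members, marker lists and limits were chosen with earlier results of these data known. Named are the 15 most-read names in slow muscle, the 15 with the largest ratio to the highest other library (at least 100 CPM and 50 reads), the 10 with the smallest ratio to the lowest other library (at least 100 CPM in every other library), and all striated muscle names; of other lists, the 2 most-read members, and others chosen after their values were seen (miR-3571-5p, miR-10c-5p, miR-122-5p, miR-215-5p, miR-183-5p, miR-203-3p, miR-205-5p, miR-727-3p). Alternatives were other denominators (18 to 25 nt totals, TMM in edgeR 4.0.16), match classes, collapsed names, limits and left-out libraries; grouping by seed, single sequences and 5 of the left-out libraries were chosen after seeing the data. Sequences and neighbours come from the deposited tables and RefSeq.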

Additional observations from a re-analysis of the deposited data

How the results depend on the processing

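Past the level were 299 names, which fell to 163 with reads identical to a mature entry. They fell to 213 with collapsed names, 158 at a minimum of 1000 CPM and 215 with 18 to 25 nt totals, so counts should be read against these. Against 12 names above the highest other library, 7 were found with reads identical to a mature entry, 6 with collapsed names, 4 at a minimum of 1000 CPM and 21 without heart. The 5 names below the lowest became 3 with 18 to 25 nt totals as denominators, 9 at 1.5-fold, 1 at 4-fold, 8 without heart and 8 without testis. The 73 names above the median became 38 with identical reads, 48 with collapsed names, 43 at 1000 CPM and 41 at 4-fold, and the 64 below it became 22 with 18 to 25 nt totals, 29 with identical reads, 33 at 1000 CPM and 32 at 4-fold. The striated share of 38.5% was 14.5% of all 18 to 25 nt reads, 39.6% of mature-match reads and 46.7% of identical reads. The share of the 10 most-read names, 64.6%, was 68.1%, 75.5% and 70.1% with mature-match reads, identical reads and collapsed names. At a minimum of 1000 reads, which keeps fewer arms, 14 arms in place of 22 had 95% of their reads at 1 start. The miR-10b-5p ratio fell below 1 with collapsed names (0.830) and by seed (0.864), as did miR-10d precursor-only by seed (0.864). The miR-21-5p ratio to testis, 0.446, turned to 6.51 with 18 to 25 nt totals. The causes were not tested, beyond the fewer names or reads that the stricter settings keep. No paired analysis was possible because each group is a single library. Depth limits names at low level mainly in testis.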
